A study of Mus musculus with 6 samples.

Results

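The 10 genes studied are part of antioxidant defence and metal binding in mouse liver, and every probe set that the platform annotation gives to exactly 1 of their symbols was taken. They are Nqo1, Gclc, Gclm, Gsr, Srxn1, Txnrd1, Sod1, Sod2, Mt1 and Mt2, and they are represented by 26 of the 45037 probe sets tested. The livers came from 6 male BALB/cCrSlc mice, an inbred albino strain, aged 17 weeks and sampled after 3 h without food, with 1 Affymetrix 3' expression array per mouse. All mice had eaten a low-protein purified diet based on AIN-93M for 10 weeks, and 3 mice per diet, chosen for medium food efficiency out of 12 fed, were measured. The control diet, 10C, held 10% casein, and the diet 6C+4CP held 6% casein with 4% collagen peptide from fish. The diets differ in both casein and collagen peptide, so those parts cannot be told apart, and the third group of mice named in the design is not analysed here.

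Nrf2, encoded by Nfe2l2, is a transcription factor that is held back by Keap1 and released under oxidative or electrophilic stress. It pairs with small Maf proteins and binds antioxidant response elements in front of genes for glutathione synthesis, thioredoxin reduction, quinone reduction and NADPH supply. Glutathione is a tripeptide of glutamate, cysteine and glycine, and liver makes and exports much of it. Superoxide dismutases turn superoxide into hydrogen peroxide. Metallothioneins are small cysteine-rich proteins that bind zinc and copper, and in liver their genes respond to metals through the factor MTF1 and also to glucocorticoids and inflammation.

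Mt1 and Mt2 were both highest in the same control mouse, so the sequences in front of them are shown here. RefSeq places Mt1 and Mt2 next to each other, with 0 other gene starts between them. The 250 bases before the start of each gene (RefSeq, GRCm38.p6, both on the plus strand) are chr8:94178839-94179088 for Mt1 and chr8:94172368-94172617 for Mt2. Capitals mark matches to the core of the metal response element, searched as TGCACNC and TGCGCNC on both strands.

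Mt1: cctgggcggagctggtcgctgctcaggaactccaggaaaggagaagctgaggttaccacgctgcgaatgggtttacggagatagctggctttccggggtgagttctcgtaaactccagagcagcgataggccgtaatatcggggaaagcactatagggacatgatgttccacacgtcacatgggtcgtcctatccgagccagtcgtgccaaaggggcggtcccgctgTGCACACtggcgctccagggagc

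Mt2: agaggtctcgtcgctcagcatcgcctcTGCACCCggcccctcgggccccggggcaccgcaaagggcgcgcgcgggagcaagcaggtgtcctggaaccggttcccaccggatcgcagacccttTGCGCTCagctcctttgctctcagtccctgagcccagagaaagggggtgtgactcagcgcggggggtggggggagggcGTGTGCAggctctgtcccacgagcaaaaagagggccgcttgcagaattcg

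The Mt1 window held 1 match, 23 bases before the start, and the Mt2 window held 3, at 223, 128 and 50 bases. Of 32851 RefSeq windows of this length, 21.4% held at least 1 match and 1.26% held at least 3. Gclm, the partner of Gclc, had 1 match to the core of the antioxidant response element, searched as TGACNNNGC on both strands and marked with capitals in chr3:122245307-122245556 on the plus strand. At least 1 such match was held by 10.2% of all windows.

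Gclm: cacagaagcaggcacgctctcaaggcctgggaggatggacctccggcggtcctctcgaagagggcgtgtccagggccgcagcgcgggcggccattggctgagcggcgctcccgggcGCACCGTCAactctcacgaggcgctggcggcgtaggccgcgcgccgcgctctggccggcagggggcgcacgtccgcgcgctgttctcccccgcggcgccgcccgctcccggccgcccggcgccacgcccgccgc

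Windows were found for 8 of the 10 genes, 3 of them for Txnrd1, and the genes not matched are Gclc and Gsr. A match to the antioxidant element was also held by Mt2, Sod1 and 1 of the 3 Txnrd1 windows, and the windows of Nqo1, Srxn1, Sod2 and Mt1 held none. A match of these letters is a description of the sequence and not a shown binding site. Only these 250 bases before the RefSeq start and the stated letters were searched. Elements further off, after that start or with other letters would be missed. A window with no match or few matches therefore does not show that its gene lacks elements or has fewer than another gene. Metal element matches numbered 1 in Srxn1 and 2 in Gclm. In Gclm 1 of these 2 metal element matches overlaps the antioxidant match.

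The deposited values are read here as log2, a base that no source used here states, and they let only part of these genes be compared. On this array the majority of probe sets show the same number in each of the 6 mice. Of the 26 probe sets 12 varied, meaning that their highest and lowest mouse differed by more than 0.01, against 17.3% of all probe sets. The other 14 held a shared value (range at most 0.00339), and such a value does not show whether the level differed between mice. Nqo1, the quinone reductase often used as a readout of Nrf2, had 1 probe set, with a shared value of 6.13 in every mouse. Gsr, glutathione reductase, had 2, at shared values of 8.20 and 7.70. These 2 genes therefore gave no comparison, while the other 8 had 1 or 2 varying probe sets each.

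**Figure D1:**
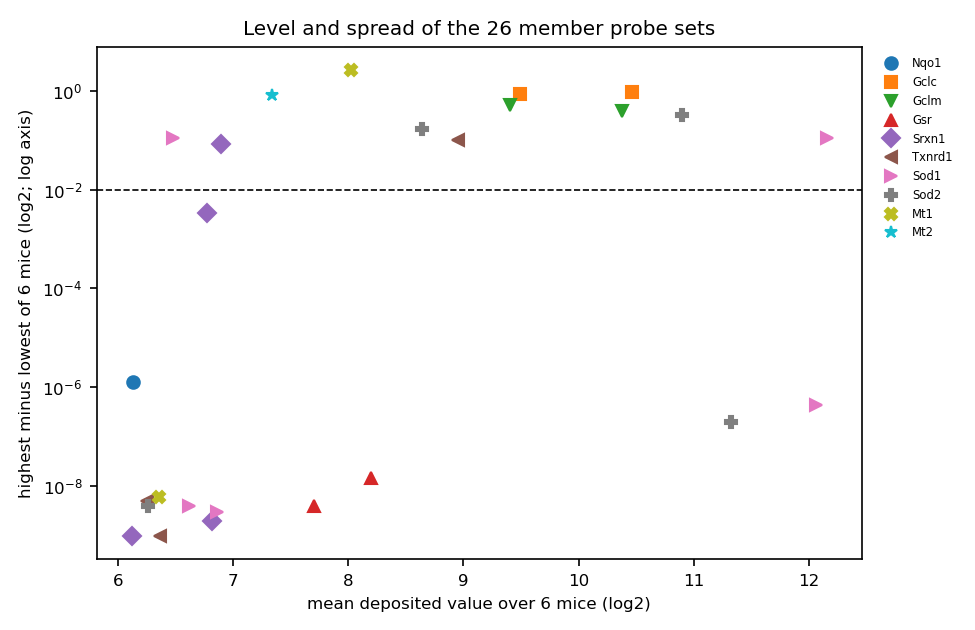
Mean deposited value (x axis, log2) against the difference between the highest and lowest of 6 mice (y axis, log2 units on a log axis) for the 26 probe sets, with 1 symbol per gene and a dashed line at the threshold of 0.01. A gap separates the 12 varying probe sets above the line from 14 below it, among them every probe set of Nqo1 and Gsr, and the 1 Srxn1 probe set with a range of 0 is drawn at the lowest mark.

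None of the 26 probe sets passed the test between the diets. Limma with Benjamini-Hochberg adjustment over all 45037 probe sets called 0 of 26 at an adjusted p under 0.05, with 1 at an unadjusted p under 0.05, against a background of 0.242% of all probe sets called and 6.42% under the unadjusted threshold. Of the 109 probe sets called, 103 held shared values and 6 varied. When the 7791 varying probe sets were fitted alone, limma called 0 of 12 and 0 overall (0.0%), with 3 of the 12 (2 of Gclc and 1 of Gclm) at an unadjusted p under 0.05, against 14.6% of all varying ones. Of the 12, 9 had a higher mean in 6C+4CP and 3 a lower one. In 3 of them, all higher, the diets did not overlap (25.0%), against a background of 19.9% of varying probe sets in either direction, 10.8% as higher and 9.11% as lower. The median difference of the 12 was 0.043, against -0.004 over all varying probe sets, and it was 0.11 without 10C replicate 3, 0.0099 with 1 probe set per gene and 0.011 with probe sets averaged by gene. Among the mice, 10C replicate 2 had the lowest value in 7 of the 12, against 12.7% of all varying probe sets, and 10C replicate 3 the highest in 4, against 16.0%; probe sets of 1 gene are not independent of each other.

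**Figure D2:**
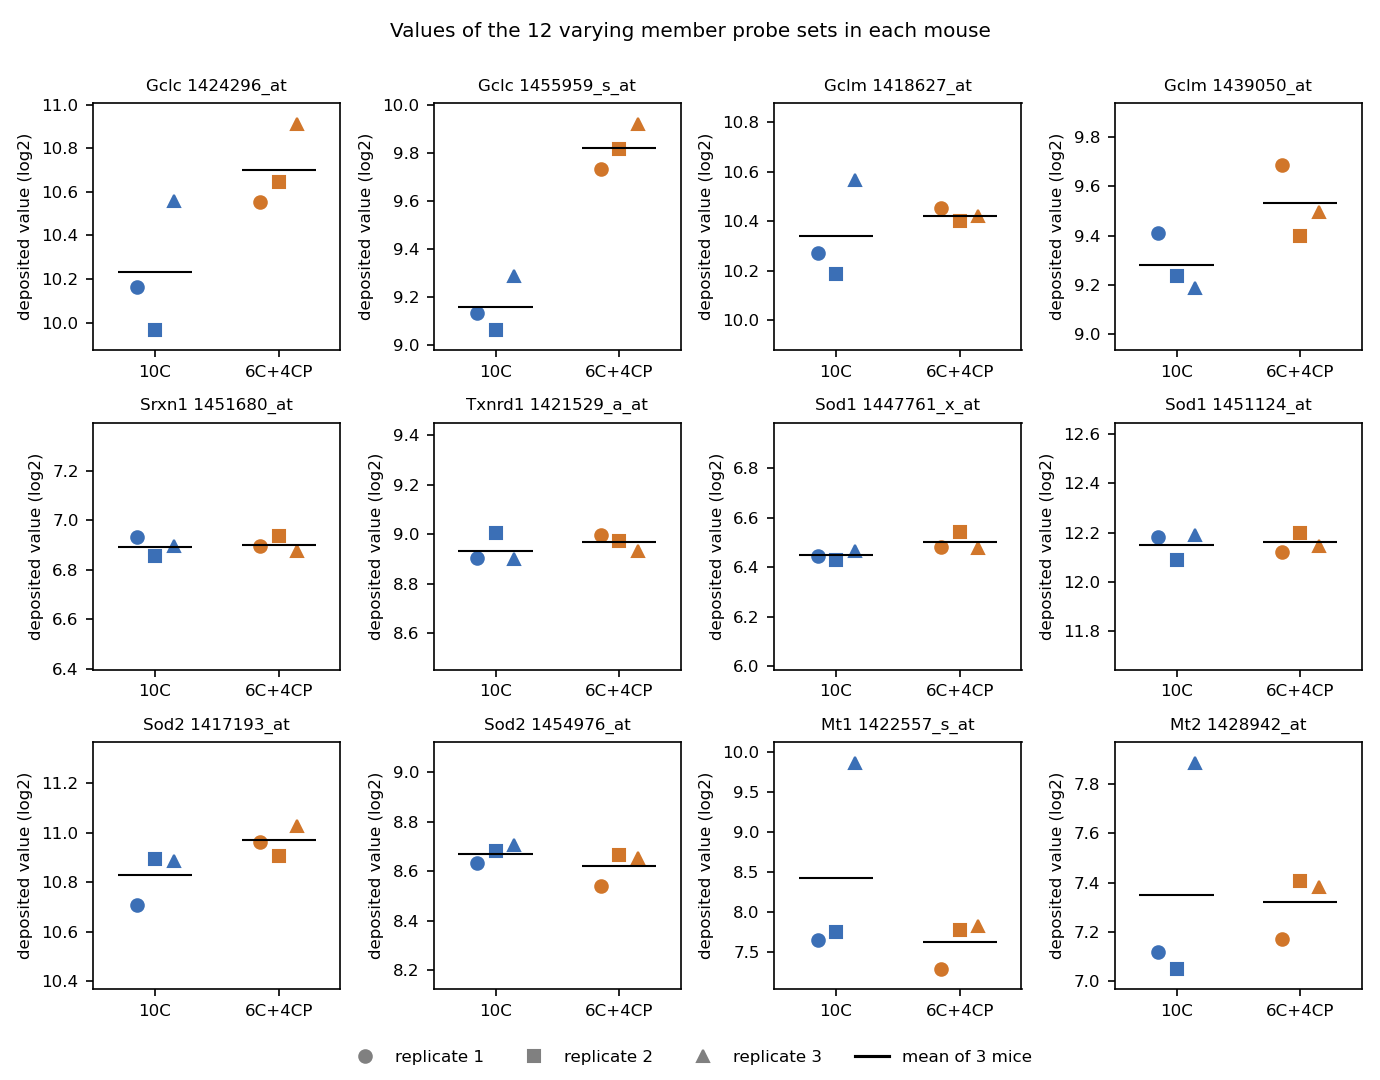
Deposited value (log2) of each varying probe set in each of the 3 mice fed 10C (blue) and 3 fed 6C+4CP (orange), with the mean of each diet as a line; each panel has its own axis, spanning at least 1 log2 unit. The 3 mice fed 6C+4CP lie above the 3 fed 10C in Gclc 1455959_s_at, Sod1 1447761_x_at and Sod2 1417193_at, and 10C replicate 3 lies far above the others in Mt1 and Mt2.

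The member with the smallest p was Gclc, the catalytic subunit of glutamate-cysteine ligase, the enzyme that limits glutathione synthesis. Its probe set 1455959_s_at read 9.13, 9.06 and 9.29 on 10C and 9.73, 9.82 and 9.92 on 6C+4CP. All 3 mice fed 6C+4CP were above all 3 fed 10C. The means were 9.16 ± 0.11 (SD, n = 3) and 9.82 ± 0.095, a log2 difference of 0.66 (SE 0.084) or 1.58 times (limma adjusted p = 0.288 over all probe sets). Fitted among varying probe sets alone its adjusted p was 0.101. Without each mouse in turn the difference stayed between 0.61 and 0.72, and the adjusted p of limma in the varying fit ran from 0.0547 (without 10C replicate 3) to 0.311 (without 6C+4CP replicate 1).

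The second probe set of Gclc, 1424296_at, read 10.16, 9.97 and 10.56 on 10C and 10.55, 10.65 and 10.91 on 6C+4CP. Here 10C replicate 3 reached the lowest 6C+4CP mouse, so the diets overlapped by that 1 mouse. The difference was 0.47 (SE 0.20), or 1.39 times (limma adjusted p = 0.704, and 0.325 in the varying fit). In both probe sets 10C replicate 3 was the highest control mouse and 6C+4CP replicate 3 the highest of all. The letter s in a probe set name marks probes that can match more than 1 transcript, so the probe set without it is the one specific to 1 transcript by the array's naming.

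Gclm, the modifier subunit that raises the efficiency of the Gclc subunit, differed by less. Probe set 1439050_at read 9.41, 9.24 and 9.19 on 10C and 9.68, 9.40 and 9.50 on 6C+4CP, with a difference of 0.25 (SE 0.11; limma adjusted p = 0.704). A single control mouse, replicate 1, lay just above the lowest 6C+4CP mouse. Probe set 1418627_at read 10.27, 10.19 and 10.57 on 10C and 10.45, 10.40 and 10.42 on 6C+4CP. The 6C+4CP mice lay within the span of the control mice, and the difference was 0.083 (SE 0.11; limma adjusted p = 0.91), with 0.20 without 10C replicate 3 and 0.005 without 10C replicate 2. The probe sets of Gclm also ordered the control mice differently, with replicate 3 the highest in 1418627_at and the lowest in 1439050_at.

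The thioredoxin branch showed small differences. Txnrd1, the cytosolic thioredoxin reductase, read 8.902, 9.004 and 8.899 on 10C and 8.998, 8.971 and 8.93 on 6C+4CP in probe set 1421529_a_at, a difference of 0.032 (SE 0.039). Its other 2 probe sets held shared values. Srxn1, sulfiredoxin, which restores over-oxidised peroxiredoxins, had 4 probe sets of which 1451680_at varied, with values from 6.85 to 6.94 and a difference of 0.0099 (SE 0.028). In both genes the diets overlapped widely.

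Among the superoxide dismutases, Sod1, the copper and zinc enzyme of the cytosol, showed the smallest difference of all in its brightest varying probe set. Probe set 1451124_at read 12.18, 12.09 and 12.19 on 10C and 12.12, 12.20 and 12.14 on 6C+4CP, with a difference of 0.00039 (SE 0.039). The dim probe set 1447761_x_at had no overlap between the diets, but over a span of 0.11 in all, with 6.45, 6.43 and 6.46 on 10C and 6.48, 6.54 and 6.48 on 6C+4CP. Its difference was 0.055 (SE 0.023; limma adjusted p = 0.704), or 0.034 without 6C+4CP replicate 2, and the letter x in its name marks probes that resemble other sequences. The other 3 Sod1 probe sets held shared values, 1 of them at 12.06.

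Sod2, the manganese enzyme of mitochondria, went both ways in its probe sets. Probe set 1417193_at read 10.71, 10.89 and 10.88 on 10C and 10.96, 10.91 and 11.03 on 6C+4CP. The diets did not overlap there, with the nearest mice of the 2 diets at 10.89 and 10.91, and the difference was 0.14 (SE 0.069; limma adjusted p = 0.716). It was 0.077 without 10C replicate 1, the lowest mouse. Probe set 1454976_at had values from 8.54 to 8.71 and a difference of -0.056 (SE 0.045), with overlap. The brightest Sod2 probe set, 1448610_a_at, held a shared value of 11.32.

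**Figure D3:**
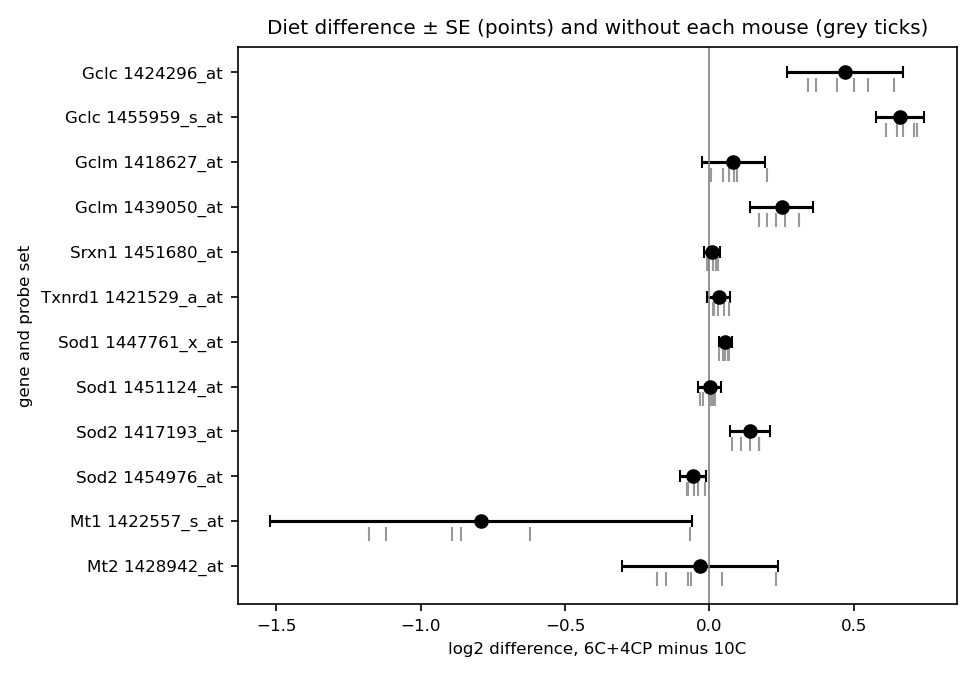
Difference between the diets (6C+4CP minus 10C, log2) with its limma standard error as bars for the 12 varying probe sets, and below each the difference with each of the 6 mice left out in turn as grey ticks. Both Gclc probe sets stay to the right of 0 without any 1 mouse, while Mt1 moves from -0.79 to -0.066 without 10C replicate 3.

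In both metallothioneins 1 mouse stood apart. Mt1 probe set 1422557_s_at read 7.64, 7.75 and 9.87 on 10C and 7.29, 7.78 and 7.83 on 6C+4CP. Its name also holds the letter s, so its probes can match more than 1 transcript. The high value was that of 10C replicate 3, and the other mice lay between 7.29 and 7.83. The difference was -0.79 (SE 0.73; limma adjusted p = 0.852), and -0.066 without that mouse. Mt2 probe set 1428942_at read 7.12, 7.05 and 7.89 on 10C and 7.17, 7.41 and 7.38 on 6C+4CP. The same mouse was again the highest. The difference was -0.032 (SE 0.27; limma adjusted p = 1.0), and it was 0.23 without 10C replicate 3. The second Mt1 probe set held a shared value of 6.36.

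Lists of glucocorticoid-responsive and acute phase genes were read on the same arrays. The 12 varying glucocorticoid genes had mean levels of 9.51, 9.73 and 10.06 on 10C and 9.64, 10.17 and 9.89 on 6C+4CP. Replicate 3 was the highest control mouse in 8 of these 12 genes, against 31.0% of all varying probe sets, and the highest of all 6 mice in 2 of the 12, against 16.0%. The named genes of that list were Sgk1, a kinase, with a difference of 0.28 (SE 0.073), Tsc22d3, the leucine zipper GILZ, with -0.37 (SE 0.15), and Errfi1, an inhibitor of growth receptors, with 0.16 (SE 0.065), and limma passed 0 of the 13 measured.

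The 18 varying acute phase genes had mean levels of 9.81, 10.55 and 9.87 on 10C and 9.77, 9.86 and 10.02 on 6C+4CP, with 10C replicate 2 the highest. In that mouse Saa1 read 14.026, against 7.536 to 9.135 in the others, and Saa2 11.516, against 6.603 to 7.313. Saa1 and Saa2 were named after their values were seen. That mouse was the highest of all in 6 of the 18 genes, against 26.2% of all varying probe sets. In 7 of the 18 replicate 3 was the highest control mouse, against 31.0% of all varying probe sets. It was the highest of all 6 mice in 4 of the 18, against 16.0%. The part of either list in the metallothionein values was not tested. Saa4, Orm2 and Il1r1, the named members, had differences of -0.39 (SE 0.22), 0.63 (SE 0.26) and 0.32 (SE 0.13), all with overlap, and limma passed 0 of the 22 measured.

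Of 17 zinc and copper handling genes measured, 7 varied, 2 higher and 5 lower in 6C+4CP, and limma passed 0. Slc30a10, an exporter of manganese in liver, read 7.50, 7.62 and 7.19 on 10C and 7.00, 6.70 and 6.88 on 6C+4CP. All 3 mice fed 6C+4CP were below all 3 fed 10C, with a difference of -0.58 (SE 0.15; limma adjusted p = 0.617). Slc30a5, a zinc carrier of the secretory pathway, differed by -0.19 (SE 0.12) with overlap, and Cp, the copper protein ceruloplasmin, by 0.032 (SE 0.010) without overlap. Mtf1, the metal-sensing transcription factor, held a shared value of 7.24.

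The varying genes of the list of Nrf2 regulators and partners had a median difference of 0.037, with Maff and Nfe2l1 differing most. That list also holds Nfe2l2 itself and Mtf1. Nfe2l2 itself read 9.22, 9.18 and 8.52 on 10C and 9.15, 8.74 and 9.26 on 6C+4CP, with a difference of 0.078 (SE 0.27) that was -0.15 without 10C replicate 3. The lowest Nfe2l2 value was that of 10C replicate 3. Keap1 held a shared value of 8.11, and Bach1, a repressor that competes with Nrf2, differed by -0.025 (SE 0.10). Maff, a small Maf partner, read 6.99, 7.07 and 6.96 on 10C and 7.41, 7.09 and 7.46 on 6C+4CP. Its diets did not overlap, by a margin between 7.07 and 7.09, and the difference was 0.31 (SE 0.12; limma adjusted p = 0.704). Nfe2l1, a relative of Nrf2, differed by 0.28 (SE 0.15) and Cul3, the ubiquitin ligase scaffold that works with Keap1, by 0.028 (SE 0.031). In all 7 of the 11 genes of this list varied, 6 higher and 1 lower, and limma passed 0.

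Of the other genes known as Nrf2 targets 19 were measured and 11 varied, 9 of these higher and 2 lower in 6C+4CP. They had a median difference of 0.14, taken with 1 probe set per gene, and limma passed 0 of 19. The median over all varying probe sets, which can hold several per gene, was -0.004. The diets did not overlap in 5 higher genes and 1 lower gene, against 11.8% and 9.52% of the 4074 genes whose brightest probe set varied. Ephx1, microsomal epoxide hydrolase, read 9.91, 10.21 and 10.08 on 10C and 10.90, 10.87 and 10.50 on 6C+4CP. The lowest 6C+4CP mouse stood above the highest control, and the difference was 0.69 (SE 0.15) or 1.61 times (limma adjusted p = 0.572). Entpd5, a nucleotidase of the endoplasmic reticulum, read 8.93, 8.88 and 9.12 against 9.51, 9.46 and 9.83, a difference of 0.62 (SE 0.13; limma adjusted p = 0.571). Abcc3, an export pump of conjugates on the blood side of hepatocytes, went the other way, with 7.47, 7.74 and 7.83 in 10C against 7.19, 7.23 and 7.28, a difference of -0.45 (SE 0.11; limma adjusted p = 0.572). The Entpd5 difference was 0.33 with probe sets averaged by gene. The other higher genes without overlap were Aox1, Akr1b8 and Abcc2, named after their values were seen. Aldh3a2, also named after its values were seen, had the largest difference of the list, 0.96 (SE 0.36), but with overlap. Hmox1, the heme oxygenase, held a shared value. Several of these genes are also under control of other receptors of drugs and lipids, so the list is not specific to Nrf2.

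**Figure D4:**
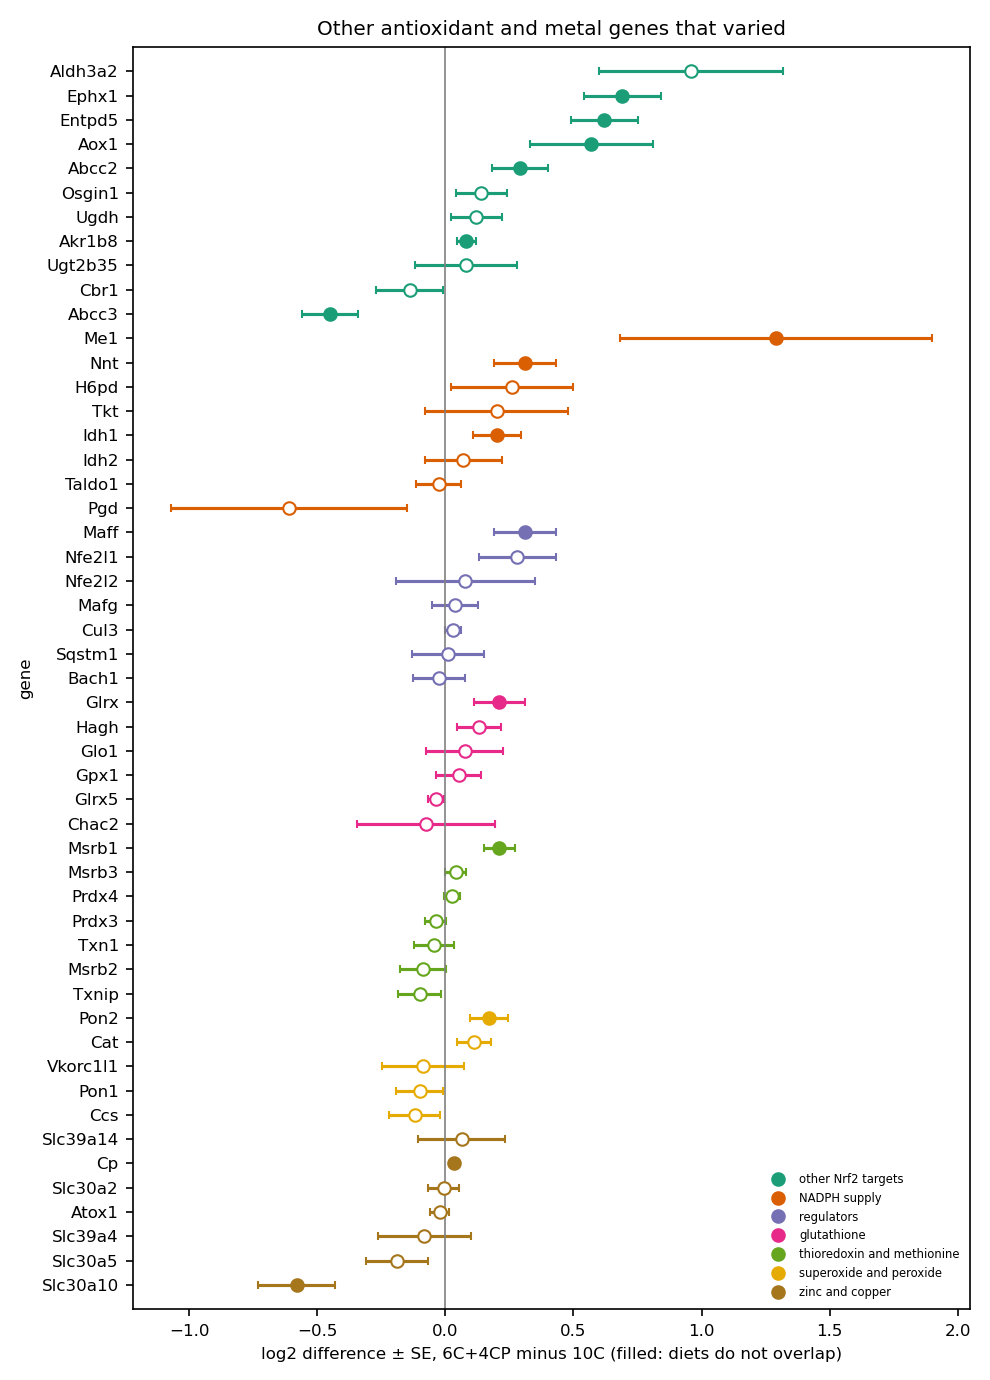
Difference between the diets (6C+4CP minus 10C, log2) with its limma standard error for the varying genes of 7 lists, 1 probe set per gene, coloured by list and filled where the diets did not overlap. Me1, Ephx1 and Entpd5 lie to the right with filled points and Abcc3 and Slc30a10 to the left. With open points, Aldh3a2 (0.96) also lies to the right and Pgd (-0.61) to the left. The thioredoxin genes lie nearer to 0 than these, the farthest being Msrb1 at 0.21 with a filled point.

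All 8 measured genes of NADPH supply, which feeds both reductases, varied, 6 higher and 2 lower, and limma passed 0. Me1, the malic enzyme, read 10.61, 10.44 and 8.89 on 10C and 11.38, 10.73 and 11.69 on 6C+4CP. The diets did not overlap, and the difference was 1.29 (SE 0.61) or 2.45 times (limma adjusted p = 0.704), with 0.75 without 10C replicate 3, the lowest mouse. Nnt, the mitochondrial transhydrogenase, differed by 0.31 (SE 0.12) and Idh1, the cytosolic isocitrate dehydrogenase, by 0.20 (SE 0.094), both without overlap. The Idh1 difference was 0.11 without 6C+4CP replicate 3. In all, 3 higher and 0 lower genes of the 8 had no overlap. Among the 4074 genes whose brightest probe set varied, 11.8% were higher and 9.52% lower without overlap. The 2 lower genes, Pgd and Taldo1, overlapped, with differences of -0.61 (SE 0.46) and -0.027 (SE 0.086). Both were named after their values were seen.

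The varying glutathione and thioredoxin genes beyond the members went both ways. In the glutathione list 6 of 16 measured genes varied, 4 higher and 2 lower, and in the thioredoxin list 7 of 15 varied, 3 higher and 4 lower, with 0 passing limma in either. Glrx, the cytosolic glutaredoxin, read 9.374, 9.584 and 9.711 on 10C and 9.714, 9.80 and 9.771 on 6C+4CP, with a difference of 0.21 (SE 0.10) and no overlap, by a margin between 9.711 and 9.714, and it was 0.11 without 10C replicate 1. Msrb1, which repairs oxidised methionine with selenocysteine, read 10.12, 10.13 and 10.24 against 10.28, 10.44 and 10.40, a difference of 0.21 (SE 0.061; limma adjusted p = 0.651) without overlap. Hagh, Glrx5, Txnip and Msrb3 overlapped, with differences of 0.13, -0.037, -0.10 and 0.041. Of 8 genes of superoxide and peroxide removal 5 varied, 2 higher and 3 lower, and 0 passed. Pon2, an intracellular paraoxonase, differed by 0.17 (SE 0.074) without overlap, and by 0.10 without 6C+4CP replicate 1. Cat, catalase, differed by 0.11 (SE 0.066) and Ccs, the copper chaperone of Sod1, by -0.12 (SE 0.10), both with overlap.

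Markers of cell types were measured on the same arrays, and in such bulk tissue fewer cells of a type and less RNA per cell cannot be told apart. Of 8 measured hepatocyte markers 6 varied, with a mean level of 13.35 to 13.42 on 10C and 13.26 to 13.28 on 6C+4CP, 1 higher and 5 lower in 6C+4CP. The diets did not overlap in the 1 higher marker, Ttr, with a difference of 0.032 (SE 0.012), and in 3 lower ones. Of these, Apoa1 and Cps1 differed by -0.11 (SE 0.024) and -0.27 (SE 0.041) and Ahsg by -0.074 (SE 0.023). Among the 4074 genes whose brightest probe set varied, 11.8% were higher and 9.52% lower without overlap. Ttr and Ahsg were named after their values were seen. The 7 varying of 12 Kupffer cell markers had mean levels of 8.22 to 8.70 on 10C and 8.01 to 8.57 on 6C+4CP, highest in 10C replicate 3 and next in 6C+4CP replicate 3, and Cd5l and C1qc differed by -0.28 (SE 0.19) and -0.21 (SE 0.20) with overlap. The 2 varying of 5 B cell markers had mean levels of 7.75 to 8.08 and 7.57 to 7.64, with Ighm lower by a difference of -0.66 (SE 0.17) without overlap and Cd22 at 0.050. Varying endothelial, stellate, erythroid and acinar markers numbered 2, 3, 1 and 1, all with overlap, and cholangiocyte, T or NK cell, neutrophil, adipocyte and muscle markers all held shared values. The signal of the array's 3' control probes of beta-actin exceeded that of its 5' probes by 1.69 in 6C+4CP replicate 2 and by 1.15 to 1.27 in the other mice, and for Gapdh by 0.62 against 0.18 to 0.31. Without that mouse the Gclc differences were 0.67 and 0.50. The part of these markers in the results was not tested.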

How the data were processed

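Total RNA of liver from 6 mice, 3 per diet, was measured on 1 Affymetrix 3' array each, from 100 ng of RNA per the labels' protocols. Samples were grouped by their titles, each a separate mouse per the labels. The authors' deposited table holds 1 processed value per probe set and array. These values were read as log2. R 2.7.2 is named per the submitters' processing notes, and how probes were corrected, summarised and put on a log scale is not stated there. Values run from 4.76 to 14.48, with array medians from 6.306 to 6.308. No signal over background is given with the deposited log2 values, so whether a dim probe set was detected is not known here. The 3 mice per diet limit the precision.

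Of 45101 probe sets 64 controls were left out. The platform annotation gave 1 symbol for 34945 of the others, several for 932 and none for 9160, and 0 probe sets with several symbols held a member. The lmFit and eBayes steps of limma 3.58.1 under R 4.3.3 (no covariates, Benjamini-Hochberg adjusted p under 0.05) compared the diets over all 45037, with the 7791 varying ones (range over 0.01) fitted alone as an alternative. Differences are 6C+4CP minus 10C, and folds are ratios of geometric means. The code was tested on simulated data. A listed gene is represented by its probe set with the highest mean.

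The members and the lists (9 of pathways with 138 symbols, 12 of cell types) were chosen with earlier results of these data known. Named are all members, Nfe2l2, Keap1, Bach1 and Mtf1, and from each list the 3 varying genes with the smallest p (2 for cell types, where hepatocyte, Kupffer and B cell markers are named here). Sequences are from RefSeq (GRCm38.p6).

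The settings varied were a block for the replicate number, each mouse left out, quantile normalization, median centring, varying or brighter probe sets alone, trend with robust estimation, adjusted p under 0.1, a range over 0.1, and 1 probe set or the probe set mean for each gene. Repeating the block and the left-out mice within varying probe sets was added after seeing the data.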

Additional observations from a re-analysis of the deposited data

How the results depend on the processing

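None of the 26 probe sets was called under any alternative run: the count was 0 in each of them, and the lowest adjusted p over the 41 gene results was 0.0547, for Gclc without 10C replicate 3 among varying probe sets. The count of called probe sets over the whole array was unstable. It was 109 as reported, 3 with the replicate number as a block, 1 after quantile normalization, 46 with 1 probe set per gene, and 0 after median centring, with varying probe sets alone, with the brighter probe sets, with trend and robust estimation, and with probe sets averaged by gene. It ran from 285 to 398 when single mice were left out, highest without 10C replicate 2. The cause was not tested. Deviations of same-numbered mice correlated at 0.477, -0.0893 and 0.0847 over varying probe sets. No such correlation was computed for differently numbered mice, so these values do not show whether the replicate numbers pair the mice. With the replicate block the count of members called stayed at 0 and their median difference was 0.043.

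The median difference of the varying members ran from 0.025 to 0.11 without single mice, and it was 0.0099 with 1 probe set per gene and 0.011 with probe sets averaged by gene, against 0.043 as reported. Of the 41 gene results 34 kept their sign in every alternative run, 9 of the 12 member probe sets among them. Signs turned without single mice for Srxn1 1451680_at (range -0.0098 to 0.029), Sod1 1451124_at (-0.031 to 0.019), Mt2 1428942_at (-0.18 to 0.23), Nfe2l2 (-0.15 to 0.23), Cul3 (-3.2e-05 to 0.053) and Bach1 (-0.10 to 0.036). Sod1 1451124_at also turned after median centring (-5.4e-05), and Cul3 (-0.028) and Cp (-0.072) with probe sets averaged by gene. Of the 26 probe sets 14 hold shared values and allow no comparison.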
